A study of Drosophila mojavensis with 127 samples.

Results

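A set of 60 transcripts of the cactus fly Drosophila mojavensis, of 14528 measured, lay furthest above every other population in flies from Punta Onah, and their levels were compared by sex, host cactus and mating. They were chosen on measured levels. The level of each transcript was averaged within each group and then over the 8 groups of each population, and the gap was taken as the Punta Onah mean minus the highest of the means of Organ Pipe National Monument, Punta Prieta and San Quintin. The 60 transcripts with the largest gap were kept among the 13392 whose mean in males lay less than 3 log2 units from their mean in females. Differences between Punta Onah and the other populations are therefore a description of the choice and carry no test. The comparisons of hosts, of mating states and of the sexes' Punta Onah differences did not enter the rule directly, and only these were tested. Yet the direction of calls for sex, and for host and mating in Punta Onah males, is not free of the choice.

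The study hybridised total RNA to single-colour NimbleGen oligonucleotide arrays, and all values are log2 expression, so that a difference of 1 is a 2-fold difference. The tissue is not stated in the labels. Wild-type flies of 4 laboratory stocks were used, each named for 1 collecting site: PO07 from Punta Onah in Sonora, OPNM08 from Organ Pipe National Monument in Arizona, and PP08 and SQ08 from Punta Prieta and San Quintin in Baja California. Flies of each stock were reared on fermenting tissue of organ pipe cactus (Stenocereus thurberi) or pitaya agria cactus (Stenocereus gummosus), and males and females were sampled mated or nonmated. That gave 32 groups, 27 of them with 4 replicates and 5 with 3, or 123 replicates in all: 32 from Punta Onah, 32 from Organ Pipe National Monument, 30 from Punta Prieta and 29 from San Quintin. A population is represented by 1 stock, so population and stock cannot be told apart, and neither slide nor scan is given in the labels. The labels do not say whether replicates are separate cultures, so each p-value reflects no more than the scatter among the replicates, and this may be technical.

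Drosophila mojavensis breeds in rotting columnar cacti of the Sonoran Desert and is a standard example of a species whose populations have taken up different host plants. Mainland populations such as those of Sonora and Arizona use mainly organ pipe cactus, whereas those of the Baja California peninsula use mainly agria. The rot on which larvae feed differs between these cacti in its lipids, sugars and fermentation volatiles, and the rearing host is known to affect the cuticular hydrocarbons and courtship of the adults. Mating changes gene expression in females of many insects through sperm and seminal fluid proteins.

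The identifiers on these arrays are FlyBase transcript numbers, and 0 of the 14528 could be matched to the gene table used here, so transcripts are named by identifier and no function or sequence is given. Some arrays stood apart. A sex index was formed from the 200 transcripts with the largest male over female difference, averaged, less the average of the 200 with the largest difference the other way. It ran from 4.08 to 4.92 in Punta Onah males, with a median of 4.53, and had a median of 4.77 in the other males. The index was only 1.06 in replicate 1 of mated Organ Pipe National Monument males on agria and 2.80 in replicate 1 of nonmated Punta Prieta males on organ pipe. Without these 2 arrays 58 of the 60 transcripts were chosen again. In replicate 1 of nonmated San Quintin males on agria the 60 transcripts averaged 9.78, against 8.97 to 9.02 in its 3 fellow replicates. There 42 of the 60 lay above all 3 fellows, as did 41.8% of all transcripts. Without that replicate 59 of the 60 were chosen again.

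The gap was modest for most of the 60. It ran from 0.48 (1.39-fold) to 1.80 (3.48-fold) with a median of 0.57 (1.49-fold), against a median of -0.06 over the 13392 transcripts within the sex limit. A gap over 1 was reached by 3 transcripts, FBtr0172428 with 1.80, FBtr0162622 with 1.19 and FBtr0167365 with 1.13, while 51 lay between 0.5 and 1 and 6 below 0.5. The edge of the choice fell within a continuous run of values: FBtr0164258, ranked 60, had a gap of 0.479, and FBtr0167783, ranked 61 and left out, had 0.476. No transcript beyond the sex limit had a gap above that of the last one kept. The next highest population was Organ Pipe National Monument for 38 of the 60, Punta Prieta for 16 and San Quintin for 6.

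FBtr0172428 had the widest gap. In Punta Onah males it measured between 12.17 and 13.81 with a median of 13.43 (n = 16), against 9.17 to 12.59 with a median of 10.94 in males of the other populations (n = 45). In Punta Onah females it lay between 10.77 and 13.58 with a median of 12.32 (n = 16), against 9.52 to 12.30 with a median of 10.54 in the other females (n = 46). The ranges overlapped in both sexes, although the Punta Onah mean was the highest in all 8 combinations of sex, host and mating. No test of host, mating or sex called it.

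FBtr0162622 had the next largest gap and a different distribution. It lay between 9.99 and 11.91 in Punta Onah females, with a median of 10.78 (n = 16), against 5.57 to 11.06 with a median of 7.60 in the other females (n = 46). In Punta Onah males it was spread from 6.55 to 11.57 with a median of 8.18 (n = 16), against 5.34 to 10.13 with a median of 7.03 in the other males (n = 45). The high Punta Onah males were all of 1 group, as described below. Its replicates also scattered more than those of any other of the 60, with a within-group SD of 0.96.

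Separation of single replicates was rare. FBtr0166935 was the only transcript on the array, 0.00688% of those measured, for which every Punta Onah male lay above every other male. Punta Onah males held 12.64 to 13.34 with a median of 13.00 (n = 16), against 10.73 to 12.56 with a median of 12.21 in the other males (n = 45). In females the same transcript overlapped, at 11.79 to 12.88 in Punta Onah and 10.82 to 12.55 elsewhere. None of the 60 separated the females, nor did any other transcript.

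**Figure D1:**
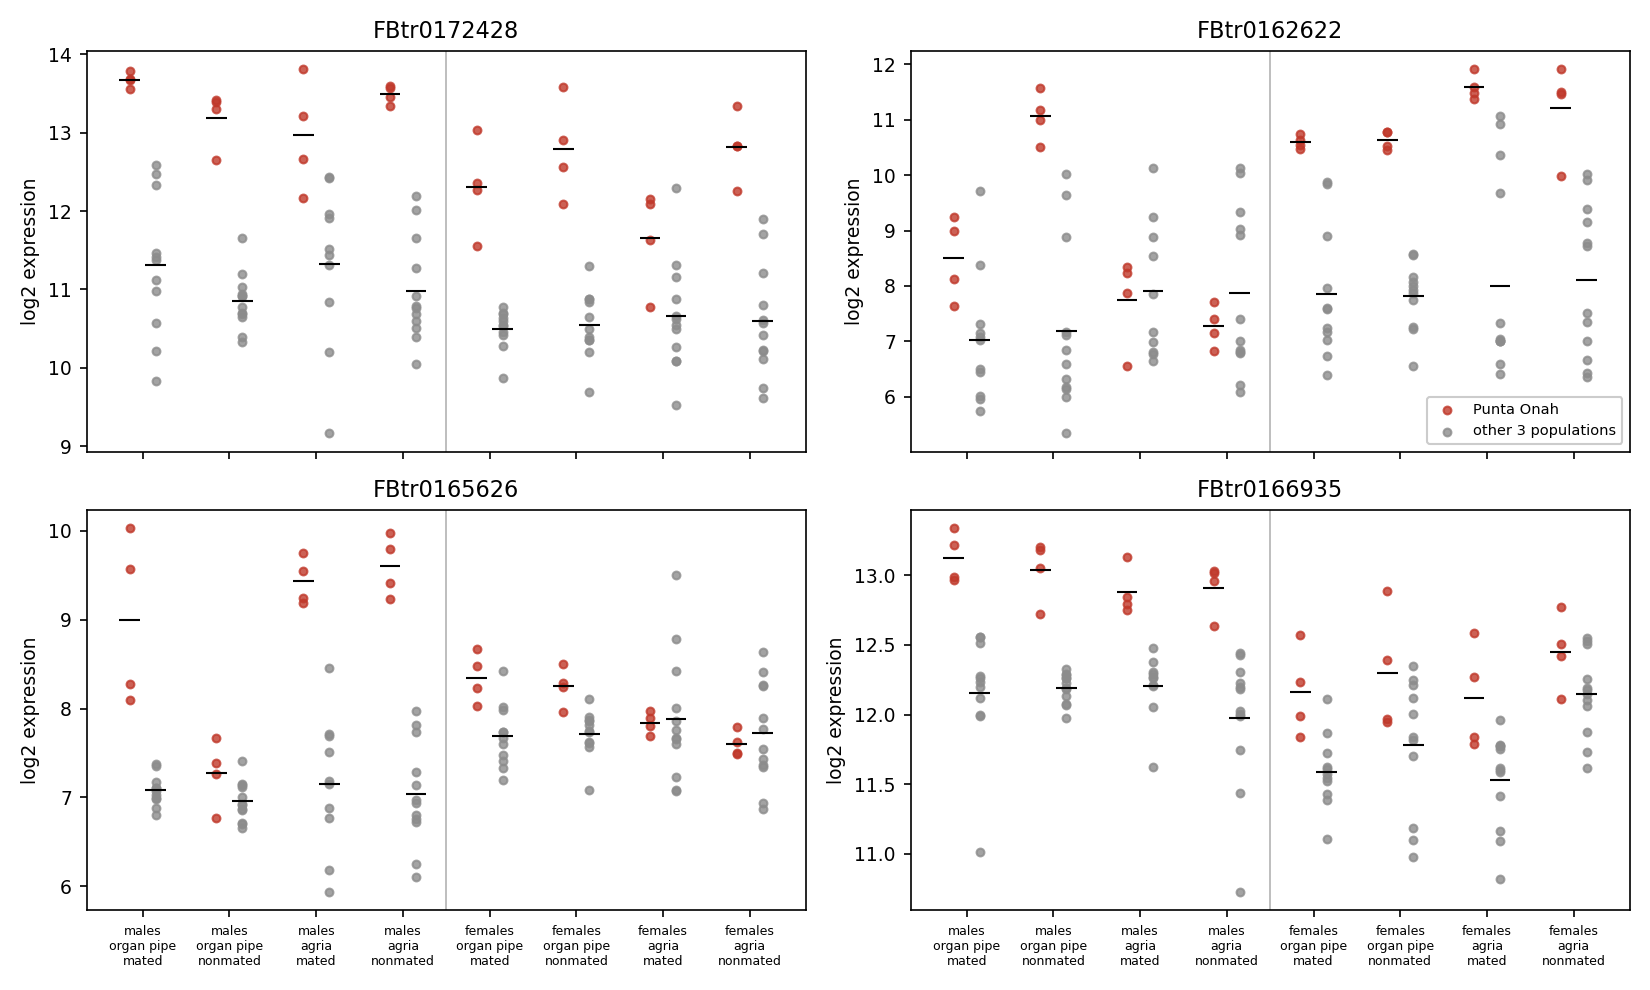
Log2 expression of 4 of the transcripts in every replicate, with Punta Onah in red left of the other 3 populations in grey and the mean of each as a black line. The groups run from males to females, each by host and mating. FBtr0172428 was high in all Punta Onah groups, FBtr0162622 was high in Punta Onah females and in nonmated males on organ pipe (10.50 to 11.57), FBtr0165626 was low in that same male group (6.77 to 7.67), and FBtr0166935 separated all males (12.64 to 13.34 against 10.73 to 12.56).

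Averaged over the 60 transcripts, Punta Onah males stood at 10.15 ± 0.21 (SD, n = 16), against 9.08 ± 0.22 in the other males (n = 45). Punta Onah females stood at 9.90 ± 0.10 (SD, n = 16), against 9.30 ± 0.22 in the other females (n = 46). The lowest Punta Onah male, at 9.77, lay just under the San Quintin male at 9.78 named above, and otherwise the males did not overlap. The females did overlap, with a lowest Punta Onah value of 9.66 and a highest value elsewhere of 9.87. These averages restate the choice and are given as levels only.

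Across the 8 combinations of sex, host and mating, Punta Onah was the highest population for 17 of the 60 in all 8, for 17 in 7, for 15 in 6 and for 11 in 5 or fewer. The count was 56, 51, 55 and 57 in males (mated on organ pipe, nonmated on organ pipe, mated on agria, nonmated on agria). In females in the same order it was 52, 47, 34 and 44. The median gap within males was 0.82 for mated and 0.40 for nonmated males on organ pipe, and 0.86 for both mating states on agria. Within females it was 0.29 for both mating states on organ pipe, 0.06 for mated and 0.28 for nonmated females on agria. Nonmated males on organ pipe were thus the male group with the smallest excess, and mated females on agria the female group.

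**Figure D2:**
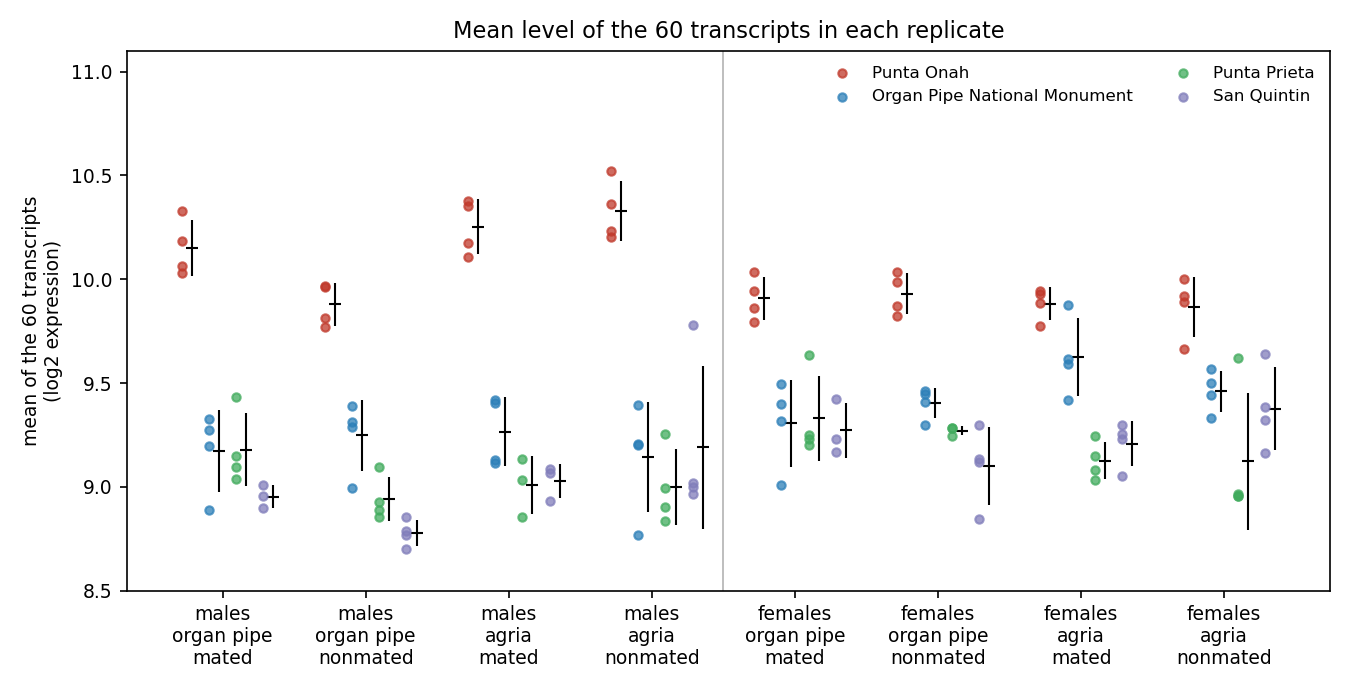
Mean log2 expression of the 60 transcripts in each replicate, by sex, host and mating, with the 4 populations side by side and Punta Onah first. Points are replicates and the black marks are the group mean and SD. Punta Onah males averaged 10.15 on organ pipe when mated, 9.88 on organ pipe when nonmated, and 10.25 (mated) and 10.33 (nonmated) on agria, while the 4 female groups of Punta Onah lay between 9.87 and 9.93.

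The Punta Onah excess was larger in males than in females for most of the 60. The Punta Onah mean minus the mean of the other populations had a median of 1.01 in males (range 0.32 to 2.19) and of 0.49 in females (range -0.06 to 3.07). The difference of these differences, fitted with limma over all transcripts with Benjamini-Hochberg adjustment, was called (adjusted p below 0.05) for 44 of the 60. It was larger in males for 39, where 26.8% of all transcripts were called that way, and larger in females for 5, where 23.7% of all transcripts were called. Its median was 0.57 over the 60 and 0.02 over all transcripts. The direction is not free of the choice, because Punta Onah differed more widely in males than in females over the whole array: the SD of that difference over all transcripts was 0.39 in males and 0.19 in females, and a rule on the mean of both sexes takes up more of the wider one.

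FBtr0168634 had the smallest p. It lay between 11.19 and 12.45 with a median of 12.12 in Punta Onah males (n = 16), against 10.53 to 11.83 with a median of 10.93 in the other males (n = 45). In females the ranges covered each other, at 11.00 to 11.85 in Punta Onah and 11.08 to 11.96 elsewhere. The excess was 1.06 ± 0.09 (SE) larger in males (2.08-fold, adjusted p = 2.84e-18). FBtr0164949 followed, with 10.95 to 12.05 in Punta Onah males (n = 16) against 9.96 to 11.33 in the other males (n = 45), and 11.59 to 12.08 in Punta Onah females (n = 16) against 11.51 to 12.06 in the other females (n = 46). Its excess was 0.93 ± 0.08 (SE) larger in males (1.91-fold, adjusted p = 2.59e-16). For both, males of the other populations lay below females, and Punta Onah males lay near or above the females. Over the 60, 38 transcripts were higher in males than in females in Punta Onah, against 19 in Organ Pipe National Monument, 21 in Punta Prieta and 22 in San Quintin. These counts are not free of the choice either, and none over all transcripts is given for comparison.

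The 5 transcripts with a larger excess in females were FBtr0162622 (difference -1.86 ± 0.39 SE, adjusted p = 3.52e-05), FBtr0171396 (-0.71 ± 0.22 SE, adjusted p = 0.00527), FBtr0172324 (-0.82 ± 0.26 SE, adjusted p = 0.00693), FBtr0162496 (-0.63 ± 0.22 SE, adjusted p = 0.0127) and FBtr0170761 (-0.51 ± 0.23 SE, adjusted p = 0.0494). Their replicates scattered widely, with within-group SDs of 0.55 to 0.96 against a median of 0.36 over the 60. All but FBtr0162622 lost the call when 1 replicate number was left out, and FBtr0170761 lost it in 7 of the alternatives tried.

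**Figure D3:**
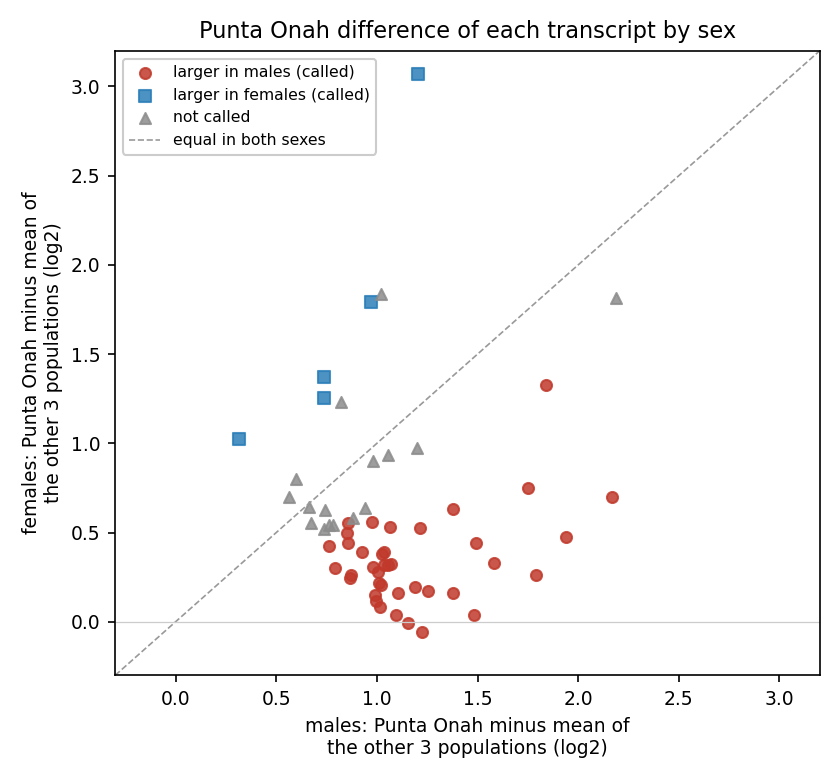
Punta Onah minus the mean of the other 3 populations for each of the 60 transcripts, males on the horizontal and females on the vertical axis, both in log2 units. The 39 red circles were called with a larger difference in males, the 5 blue squares with a larger difference in females, and the 16 grey triangles were not called. The dashed line marks equal differences, and 51 of the 60 points lie on its male side.

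In Punta Onah males the 60 were called for host about as often as the array as a whole, and mostly in 1 direction. That direction is not free of the choice, because nonmated males on organ pipe weighed less in it, as given below. With both mating states averaged, organ pipe minus agria was called for 27 (45%, against 36.9% of all transcripts): 23 were lower on organ pipe, where 20.2% of all transcripts were called lower, and 4 were higher, where 16.7% were. The median difference was -0.21 over the 60 and -0.04 over all transcripts. As a share, 38.3% of the 60 were lower on organ pipe and 6.67% higher. The same contrast set against that of males of the other populations called 27 as well, 21 with a more negative host difference in Punta Onah (19.4% of all transcripts) and 6 with a more positive one (15.8%).

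FBtr0164466 had the smallest p among those lower on organ pipe. Punta Onah males on organ pipe measured 9.03, 8.59, 8.54 and 8.65 when mated and 7.91, 8.01, 7.39 and 7.73 when nonmated. Those on agria measured 9.61, 9.44, 9.17 and 9.08 when mated and 9.27, 9.71, 9.21 and 9.46 when nonmated. No value on organ pipe reached the lowest on agria. The difference was -1.14 ± 0.13 (SE; 2.20-fold, adjusted p = 4.65e-11), and relative to the host difference of the other males it was -1.26 ± 0.16 (SE; adjusted p = 4.46e-10). FBtr0165416 differed by -1.21 ± 0.14 (SE; 2.31-fold, adjusted p = 4.84e-11). Its males measured 8.96, 8.87, 7.92 and 8.15 (mated) and 7.18, 7.53, 8.42 and 7.68 (nonmated) on organ pipe, against 9.69, 8.77, 8.78 and 9.23 (mated) and 9.66, 9.19, 9.85 and 9.17 (nonmated) on agria, so that 2 mated males on organ pipe reached into the agria range.

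The 4 transcripts higher on organ pipe were FBtr0162622 (2.27 ± 0.47 SE, 4.81-fold, adjusted p = 5.66e-05), FBtr0172324 (1.32 ± 0.32 SE, 2.50-fold, adjusted p = 0.00064), FBtr0168306 (1.41 ± 0.44 SE, 2.66-fold, adjusted p = 0.00805) and FBtr0166055 (0.58 ± 0.20 SE, 1.49-fold, adjusted p = 0.0153). The call for FBtr0166055 was lost without replicate 2 or 4, and that for FBtr0168306 without replicate 3. FBtr0162622 and FBtr0172324 also led the 6 with a more positive host difference than the other males, at 3.02 ± 0.55 (SE, adjusted p = 6.72e-06) and 1.78 ± 0.38 (SE, adjusted p = 9.21e-05).

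The host difference was mostly that of nonmated males. In mated Punta Onah males 4 of the 60 were called, 2 lower (0.874% of all) and 2 higher (0.977%), with a median of -0.02. Those 4 were FBtr0166454 (-1.27 ± 0.35 SE, adjusted p = 0.0312), FBtr0172275 (-1.10 ± 0.32 SE, adjusted p = 0.0472), FBtr0166055 (1.05 ± 0.28 SE, adjusted p = 0.0263) and FBtr0167957 (0.61 ± 0.16 SE, adjusted p = 0.0202), and all 4 were lost in a fit to males alone. In nonmated males 30 of the 60 were called, 27 lower on organ pipe (23.6% of all transcripts) and 3 higher (16.9%), with a median of -0.44 over the 60 and -0.09 over all transcripts. The difference between the 2 host differences was itself called for 20 of the 60. It was positive, that is less negative in mated males, for 18 (4.79% of all transcripts) and negative for 2 (4.03%), FBtr0172324 (-2.42 ± 0.64 SE, adjusted p = 0.00863) and FBtr0162622 (-3.04 ± 0.94 SE, adjusted p = 0.0265), which lost the call without replicate 3. The direction of the difference between the 2 host differences is not free of the choice, for the reason given below. These comparisons within 1 mating state or host were added after the values had been seen.

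The same group shows from the side of mating. The direction on organ pipe is not free of the choice either. With both hosts averaged, mated minus nonmated was called for 18 of the 60 in Punta Onah males, 14 higher when mated (4.3% of all transcripts) and 4 lower (2.48%), with a median of 0.21 over the 60 and 0.04 over all. After all arrays were shifted to 1 median the split was 6 higher and 4 lower, and after quantile normalization 6 and 3. Of all transcripts 5.88% were called after the shift, 31.9% of these calls higher when mated. After quantile normalization 5.78% were called, 53.3% of these calls higher, against 6.78% and 63.5% as deposited. On organ pipe alone 32 were called, 26 higher when mated (12.4% of all) and 6 lower (7.28%). The split was 20 and 7 after the shift and 21 and 6 after quantile normalization. Of all transcripts 17.3% were called on organ pipe after quantile normalization, 51.3% of these calls higher, against 19.7% and 63% as deposited. No such share is given here for the shift. The median difference there was 0.44 over the 60 and 0.08 over all transcripts. The shift lowered the median of all transcripts to -0.02 and that of the 60 to 0.34. On agria 0 of the 60 were called with limma, where 0.117% of all transcripts were. There 3 of the 60 had an unadjusted p below 0.05, as did 8.88% of all transcripts.

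FBtr0163269 and FBtr0165626 had the smallest p for a higher level when mated. FBtr0163269 measured 10.85, 10.39, 10.42 and 10.17 in mated and 9.32, 9.38, 9.20 and 9.11 in nonmated Punta Onah males on organ pipe, 2 groups that did not overlap. On agria it measured 10.76, 10.62, 10.09 and 9.92 in mated and 10.09, 10.93, 10.74 and 10.31 in nonmated males, which did overlap. The mating difference on organ pipe was 1.20 ± 0.16 (SE; 2.30-fold, adjusted p = 8.41e-09), and it exceeded that on agria by 1.37 ± 0.23 (SE, adjusted p = 8.24e-06). The nonmated males on organ pipe lay within the range of nonmated males of the other populations on that host, 8.86 to 9.39 (n = 12).

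FBtr0165626 measured 9.57, 10.03, 8.28 and 8.10 in mated and 7.67, 7.27, 6.77 and 7.39 in nonmated Punta Onah males on organ pipe. On agria it measured 9.75, 9.18, 9.25 and 9.55 in mated and 9.79, 9.98, 9.23 and 9.41 in nonmated males. Its mating difference was 1.72 ± 0.25 on organ pipe (SE; 3.29-fold, adjusted p = 9.63e-08), and its host difference in nonmated males was -2.33 ± 0.25 (SE; 5.02-fold, adjusted p = 7.65e-13). The other populations' nonmated males on organ pipe held 6.66 to 7.41 (n = 12), a range that 3 of the 4 Punta Onah replicates fell in.

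FBtr0162622 and FBtr0172324 ran the other way. FBtr0162622 measured 8.12, 7.64, 9.24 and 8.99 in mated and 10.50, 11.17, 11.00 and 11.57 in nonmated males on organ pipe, against 6.55, 8.24, 8.35 and 7.87 in mated and 7.15, 7.40, 6.83 and 7.72 in nonmated males on agria. FBtr0172324 measured 7.49, 7.23, 7.31 and 7.13 in mated and 10.06, 9.55, 9.75 and 9.90 in nonmated males on organ pipe, against 7.04, 6.99, 7.10 and 7.62 in mated and 7.41, 7.48, 6.91 and 7.34 in nonmated males on agria. In both, the nonmated males on organ pipe stood above all other Punta Onah males. The host difference in nonmated males was 3.79 ± 0.66 for FBtr0162622 (SE; 13.8-fold, adjusted p = 2.12e-06) and 2.53 ± 0.45 for FBtr0172324 (SE; 5.78-fold, adjusted p = 3.82e-06). The remaining transcript of the 3 that were higher there was FBtr0168306 (2.56 ± 0.63 SE, 5.89-fold, adjusted p = 0.000559), at 11.65 to 12.25 on organ pipe and 8.80 to 9.70 on agria. The 4 transcripts lower when mated over both hosts were FBtr0172324 (-1.31 ± 0.32 SE, adjusted p = 0.00508), FBtr0174480 (-1.20 ± 0.31 SE, adjusted p = 0.009), FBtr0165468 (-0.93 ± 0.27 SE, adjusted p = 0.0208) and FBtr0162496 (-0.84 ± 0.27 SE, adjusted p = 0.0391), of which FBtr0172324 alone kept its call in every alternative that measured it.

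**Figure D4:**
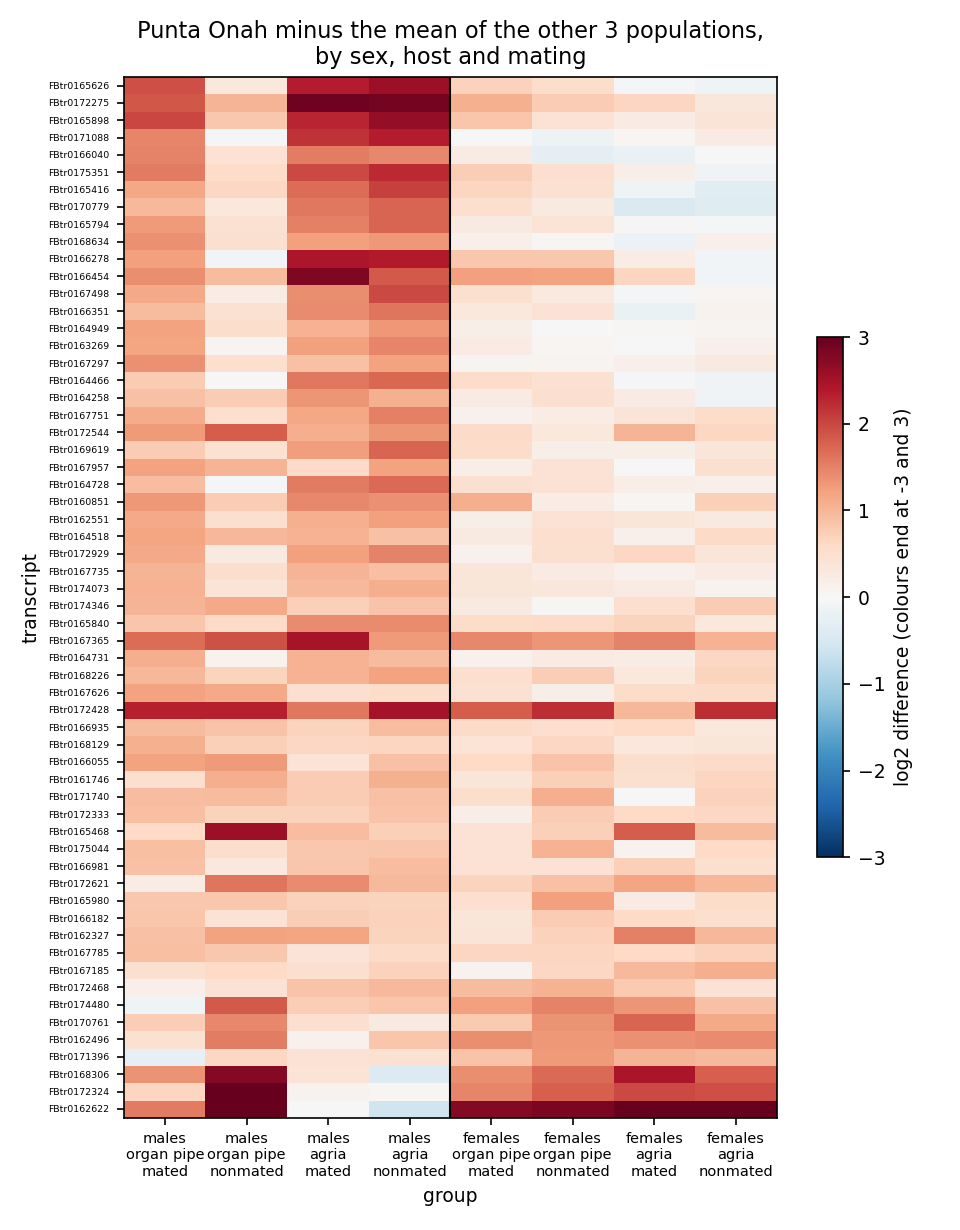
Punta Onah minus the mean of the other 3 populations for each of the 60 transcripts (rows) in each combination of sex, host and mating (columns), in log2 units, with red for higher in Punta Onah. Rows run from the largest male over female excess at the top to the reverse at the bottom. The column of nonmated males on organ pipe is paler than the other male columns in the upper rows and darker in the lowest ones. The column medians were 1.05 for mated and 0.64 for nonmated males on organ pipe, and 1.04 for mated and 1.15 for nonmated males on agria.

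Features of the arrays also differed between the Punta Onah male groups. The sex index set the nonmated males on organ pipe apart. The mean of the dimmest transcripts overlapped between the mating states on each host. Between the hosts it overlapped in mated males but not in nonmated males. The SD over each array did the same. It was 1.90 to 1.99 in nonmated males on organ pipe, against 1.75 to 1.89 on agria. In mated males it was 1.88 to 1.96 on organ pipe, against 1.80 to 1.92 on agria. The sex index was 4.33 to 4.72 in mated and 4.85 to 4.92 in nonmated Punta Onah males on organ pipe, against 4.16 to 4.63 in mated and 4.08 to 4.48 in nonmated males on agria. The mean of the dimmest 25% of transcripts was 8.03 to 8.16 in mated and 7.90 to 8.12 in nonmated males on organ pipe, against 8.14 to 8.38 in mated and 8.19 to 8.45 in nonmated males on agria. Of the 60, 27 belong to those dimmest 25%, and of these 17 were called lower on organ pipe in males (63%, against 37.9% of all dim transcripts) and 2 higher (7.41%, against 8.12%). Of the other 33, 6 were called lower (18.2%, against 14.3% of all other transcripts) and 2 higher (6.06%, against 19.6%). In a fit without the dim transcripts 24.2% of the 33 were called in either direction, fewer than the 33.3% of all transcripts in that fit. After quantile normalization, which makes the distributions of all arrays equal, 27 of the 60 (45%) were called for host in males, against 34.5% of all transcripts. Of all calls in that fit 52.6% were higher on organ pipe, against 45.3% as deposited. The split of the 27 by direction is not given here. The part of the sex index and of the other array features in these results was not tested.

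Over the whole array, Punta Onah males also differed from the other males less in nonmated males on organ pipe than in the other 3 groups. The SD over all transcripts of Punta Onah minus the mean of the other populations was 0.52 in mated and 0.29 in nonmated males on organ pipe, and 0.51 in mated and 0.58 in nonmated males on agria. The rule adds these differences up, so groups with a wider spread weighed more in the choice of the 60. The direction of the host calls, and of the mating calls on organ pipe, in Punta Onah males is therefore not free of the choice. The same holds for the calls on the host difference of mated against nonmated males.

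Females of Punta Onah responded to host in few of the 60, and with the opposite sign. Organ pipe minus agria was called for 5, all higher on organ pipe, where 0.95% of all transcripts were called higher and 2.78% lower. They were FBtr0170779 (0.66 ± 0.13 SE, 1.58-fold, adjusted p = 0.0023), FBtr0165416 (0.66 ± 0.14 SE, 1.58-fold, adjusted p = 0.00284), FBtr0164466 (0.52 ± 0.13 SE, 1.44-fold, adjusted p = 0.014), FBtr0166454 (0.87 ± 0.24 SE, 1.83-fold, adjusted p = 0.0282) and FBtr0165626 (0.58 ± 0.18 SE, 1.49-fold, adjusted p = 0.0447). All 5 were called lower on organ pipe in Punta Onah males. When replicate 4 was left out, 0 of all transcripts were called, these 5 included. With array weights 24 of the 60 (40%) were called, where 32.3% of all transcripts were, against 3.73% without the weights.

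FBtr0170779 measured 11.28, 10.87, 10.87 and 10.73 in mated and 10.34, 10.27, 10.29 and 10.53 in nonmated Punta Onah females on organ pipe, against 10.53, 10.20, 10.00 and 10.18 in mated and 9.76, 10.07, 9.81 and 9.35 in nonmated females on agria. Within each mating state the hosts did not overlap. In males it ran the other way, with 11.57, 11.02, 10.66 and 10.73 (mated) and 9.98, 10.28, 10.18 and 10.36 (nonmated) on organ pipe, against 11.84, 11.27, 11.49 and 11.59 (mated) and 11.41, 12.17, 11.43 and 11.62 (nonmated) on agria. The host difference in males minus that in females was -1.66 ± 0.18 (SE, adjusted p = 1.34e-11). For FBtr0165416 it was -1.87 ± 0.20 (SE, adjusted p = 6.42e-12).

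FBtr0165416 in Punta Onah females measured 9.17, 8.91, 8.90 and 9.07 in mated and 8.91, 8.93, 8.53 and 8.85 in nonmated females on organ pipe, against 8.30, 8.67, 8.30 and 8.23 in mated and 8.12, 8.21, 7.78 and 8.35 in nonmated females on agria. FBtr0164466 measured 8.45, 8.74, 8.23 and 8.54 in mated and 8.35, 8.11, 8.33 and 8.45 in nonmated females on organ pipe, against 8.09, 8.16, 7.96 and 8.01 in mated and 7.62, 7.91, 7.65 and 7.62 in nonmated females on agria. In both, the hosts did not overlap within either mating state. The host difference between the sexes was called for 25 of the 60, 21 with the more negative difference in males (17.1% of all transcripts) and 4 with the more positive one (14.3%). The 4 were FBtr0162622 (3.05 ± 0.66 SE, adjusted p = 0.000179), FBtr0172324 (1.72 ± 0.45 SE, adjusted p = 0.0021), FBtr0168306 (1.88 ± 0.63 SE, adjusted p = 0.0152) and FBtr0167626 (0.62 ± 0.24 SE, adjusted p = 0.0419), and the last pair lost the call when single replicate numbers were left out.

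Set against females of the other populations, the host difference of Punta Onah females was called for 3 of the 60, all more positive: FBtr0170779 (0.79 ± 0.15 SE, adjusted p = 0.00256), FBtr0165416 (0.79 ± 0.16 SE, adjusted p = 0.0107) and FBtr0164466 (0.58 ± 0.16 SE, adjusted p = 0.047). Of all transcripts 0.234% were called more positive and 0.434% more negative. Each of the 3 lost its call in at least 1 fit that left out a replicate number. Mating in Punta Onah females called 1 of the 60, FBtr0170779, higher when mated by 0.53 ± 0.13 (SE; 1.44-fold, adjusted p = 0.0103), with 0.895% of all transcripts called higher and 0.372% lower. That call was lost without replicate 1 or 2.

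The mating difference of Punta Onah was not called as different from that of the other populations for any of the 60. In males limma called 0, where 1.02% of all transcripts were called, and the smallest adjusted p was 0.0696. There 18 of the 60 had an unadjusted p below 0.05, as did 12.1% of all transcripts. In females it called 0 of the 60 and 0% of all transcripts, with 6 of the 60 (0.971% of all transcripts) at an unadjusted p below 0.05 and a smallest adjusted p of 1. These p-values do not show that the populations respond alike.

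The median host difference of the 60 in males was not of 1 sign in all populations, a difference that was described and not tested as a set. It was -0.21 in Punta Onah with 39 of the 60 below 0, 0.05 in Organ Pipe National Monument with 28 below 0, 0.06 in Punta Prieta with 18 below 0, and -0.17 in San Quintin with 44 below 0. In females the medians were 0.05, -0.18, 0.19 and -0.08 in the same order. Over all transcripts the medians lay between -0.04 and 0.05 in every population and sex.

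The calls for sex and for host share the Punta Onah male values, and they went together over the whole array. Of the 39 transcripts with a larger Punta Onah excess in males, 22 (56.4%) were called lower on organ pipe in Punta Onah males and 0 higher, where 40.4% of all 3896 transcripts with such an excess were called lower and 0.95% higher. In nonmated males 26 of the 39 (66.7%) were called lower, where 50.4% of the 3896 were. On organ pipe 25 of the 39 (64.1%) were called higher when mated, where 35.7% of the 3896 were. Of the 5 with a larger excess in females, 2 were called higher on organ pipe in males, where 44.3% of all 3438 transcripts of that kind were. Whether the 60 differ in this from the other transcripts was not tested. Within groups, the deviations of replicates from their group means correlated with a mean r of 0.13 over 1770 pairs of the 60, of which 1204 lay above 0. Single pairs, which share the same arrays, ran from -0.68 to 0.91. Over the 10 pairs among the 5 with a larger excess in females the mean r was 0.39. No such value over all transcripts is given for comparison.

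As a set the 60 were dimmer and more variable than the array as a whole. Their median level was 9.25, against 10.55 over all transcripts, and 17 lay above that median. Their within-group SD had a median of 0.36, against 0.28 over all transcripts, and 51 of the 60 lay above it. The most repeatable were FBtr0167297, with an SD of 0.19, and FBtr0164949, with 0.20, and the least repeatable FBtr0162622, with 0.96, and FBtr0168306, with 0.91. For 9 of the 60 (15%), FBtr0172428 among them, no comparison of host, mating or sex was called, as for 25.8% of all transcripts.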

How the data were processed

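The deposited table holds log2 expression values for 14528 transcripts on 127 arrays, which the authors made with RMA, per the submitters' processing notes. That the unit is log2 rests on the range of the values (4.64 to 15.78), and the genome and annotation of the probes are not given in the sources used here. Array medians ran from 10.15 to 10.64. In 4 cases a pair of arrays shared a group and replicate number and was averaged, giving 123 replicates. The number of arrays limits the precision.

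The model, with 1 mean per group for 32 groups, was fitted over all replicates with limma 3.58.1 in R 4.3.3 (91 residual and 4.67 prior degrees of freedom), so that groups share 1 estimate of the spread. Contrasts weighted groups equally, were two-sided, and were adjusted by Benjamini-Hochberg over all 14528 transcripts with a threshold of 0.05. The fit was tested on simulated data for the host difference in Punta Onah males only. Replicate numbers were not treated as pairs in the main fit. In Punta Onah, deviations of same-numbered replicates of different groups correlated with a mean r of -0.01 over 112 pairs, against 0.006 for other numbers. Same-numbered pairs ran down to -0.70 and 33 lay above 0.1. The mean therefore does not show that no samples were paired.

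Transcripts named are the 2 with the largest gap, those at the edge of the choice, for each test the 2 called with the smallest p in each direction, the 2 with the smallest and the 2 with the largest within-group SD, and those behind a count of 5 or fewer. FBtr0166935, FBtr0167365 and the members of each pattern described were named after their values were seen. The transcripts and comparisons were chosen with earlier results of these data known. Alternatives were quantile normalization, a shift of all arrays to 1 median, leaving out the dimmest 25% of transcripts, array weights, a replicate block, single replicate numbers or arrays left out, fits to 1 sex, and other forms of the rule.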

Additional observations from a re-analysis of the deposited data

Results flagged for a closer look

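The mean of the 60 transcripts was set apart in 3 of the 27 groups of 4 replicates. Replicate 2 of nonmated Punta Prieta females on agria stood at 9.62, with its group reaching down to 8.95. Replicate 1 of mated Punta Prieta females on organ pipe stood at 9.64, with its group reaching down to 9.20, and replicate 1 of nonmated San Quintin males on agria at 9.78, with its group reaching down to 8.97. Of 40 sets of 4 replicates of single transcripts in Punta Onah, 2 held a replicate set apart: FBtr0165416 at 8.67 in replicate 2 of mated females on agria and FBtr0164466 at 7.91 in replicate 2 of nonmated females on agria. By chance about 1 in 20 groups is set apart in this way.

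Differences of a contrast between groups were called by limma for part of the 60 in 5 comparisons. The share of all transcripts called is in parentheses. The Punta Onah difference differed between the sexes for 44 (50.5%). The host difference of Punta Onah differed between the sexes for 25 (31.4%). It differed from that of the other populations for 27 in males (35.2%) and for 3 in females (0.668%). In Punta Onah males it differed between mated and nonmated flies for 20 (8.82%). The direction of calls is not free of the choice in the comparisons that hold Punta Onah males.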

How the results depend on the processing

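Of the 55 results on single transcripts, 28 kept direction and call in every alternative; over 671 recomputed values 590 did so, 81 lost the call and 0 reversed. The cause of each change was not tested unless given. Counts are of the 60, with the share of all transcripts called under the same setting in parentheses where given. Mating in Punta Onah males gave 9 after quantile normalization (5.78%), 10 after the shift to 1 median (5.88%) and 11 in a fit to males alone (4.08%), and host by mating gave 13 after quantile normalization (8.62%). Without the dimmest transcripts only 33 of the 60 are present. All 33 were chosen again, but this was fixed in advance, because their gaps and the rule stayed the same. The counts were then host in males 8 (33.3%), mating in males 9 (7.37%), host by population in males 9 (32.8%) and in females 1 (0.615%), host in females 2 (4.72%), host by sex 6 (27.4%), sex by population 18 (48.8%), host in nonmated males 9 (37.3%), mating on organ pipe 15 (20.7%) and host by mating 7 (8.22%). Array weights, whose estimation stopped before its tolerance was met, gave mating by population in males 2 (1.93%), host in females 24 (32.3%), mating in females 5 (7.27%), host by population in females 19 (23%) and host in mated males 7 (4.1%), so that calls rose over the whole array. Fits to 1 sex gave host in mated males 0 (0.434%), mating in females 4 (1.49%) and host by population in females 5 (2.3%). Without replicate 1 of nonmated San Quintin males on agria, mating by population in males gave 1 (1.44%) and mating on organ pipe 34 (21.8%). Leaving out single replicate numbers, with fewer samples, gave mating in males 7 to 13, host in females 0 to 3, mating in females 0 to 5, host by population in females 0 to 1, host in mated males 0 to 2, mating on organ pipe 21 to 29, host by mating 9 to 18, host in males 23 to 28 and sex by population 35 to 43. With a replicate block host in males gave 27, mating in males 17 and sex by population 45, with no count moved by over 1.5 times. No share of all transcripts is given here for the replicate-number and block fits. Their counts therefore do not show whether a change was particular to the 60. In choosing the transcripts, the gap over the mean of the other populations kept 35, quantile normalization 56, and single replicate numbers left out 48 to 54. In each alternative every one of the 60 present kept a positive gap. That could not fail for the gap over the mean or without the dimmest transcripts. Among all transcripts, the share of mating calls in Punta Onah males that were higher when mated was 31.9% after the shift and 53.3% after quantile normalization, against 63.5% as deposited.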
